A study of Mus musculus with 32 samples.

Results

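Gene expression in 13 mouse clear cell sarcomas was compared with that in 7 mouse osteosarcomas, 20 of the 32 RNA-seq libraries of the study. The clear cell sarcomas were the libraries whose source names begin with that diagnosis, and the osteosarcomas those whose titles name Rb1 and p53. Human clear cell sarcoma, which arises in tendons and other soft tissue, usually carries a fusion of EWSR1 with ATF1 that joins part of an RNA-binding protein to a transcription factor of the CREB family. Osteosarcoma is a tumour whose cells lay down bone matrix. The retinoblastoma protein restrains entry into the cell cycle and p53 answers DNA damage, and both are often lost in human osteosarcoma. The study modelled clear cell sarcoma in mice, and this comparison sets its tumours beside a mouse sarcoma of another type.

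The clear cell sarcoma titles all carry the label EA1 and differ in the Cre recombinase that started the tumour. There were 5 libraries for Rosa26CreER, 4 for TATCre, 2 for Prx1CreERT2 and 2 for Bmi1IRESCreERT2. The CreER and CreERT2 forms act after tamoxifen is given and are made wherever the gene in the first part of the name is active, while TATCre is applied as a protein. The osteosarcoma titles carry Rb1p53 with Col1Cre in 4 libraries and with Prx1Cre in 3. Col1 drives expression in bone-forming cells and Prx1 in the mesenchyme of the developing limb. The other 12 libraries were 6 synovial sarcomas titled Myf5-SSM2/PLUC and 6 controls, of which 5 are titled Chest and 1 Bone. The labels give no strain, age, sex, allele or animal, do not say what EA1 stands for and do not name the control tissue. No genotype or Cre label is the same in both tumour types, although Prx1 occurs in both, so tumour type, genotype and initiating Cre cannot be told apart. TATCre libraries N123-RLN and N123-Rleg share a title number. So do synovial sarcomas N37-4, N37-7 and N37-8, and N39-5 and N39-9, which enter the spread behind the limma p-values. Nothing says that the other libraries came from separate animals, so the p-values reflect only variation from library to library, some of it possibly technical.

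The deposited values are RPKM, a read count corrected for transcript length and library depth. They cover 55419 transcripts named only by UCSC identifiers, which no table used here pairs with gene names. The labelled tissues were therefore not checked against marker genes, no gene list was counted, and transcripts are described by rank, recovered length and level. The recovered length is the whole number of bases that fits the steps between low RPKM values. Depth, recovered from the same steps, was 9.54 ± 1.22 M reads (megareads) in clear cell sarcoma (SD, n = 13) and 10.6 ± 0.945 M reads in osteosarcoma (SD, n = 7), a difference that did not pass a two-sided exact permutation test over libraries (p = 0.062, adjusted over 5 library measures 0.155). The share of summed RPKM on transcripts under 100 bases was 37.4 ± 2.94% (SD, n = 13) against 42.2 ± 5.48% (SD, n = 7), with an exact permutation p of 0.0188 and 0.0942 after adjustment. The number of transcripts at 1 RPKM or more was 12040 ± 942 (SD, n = 13) against 11745 ± 539 (SD, n = 7; exact permutation p = 0.456). A transcript with few reads may be listed at 0 in the table, so a 0 is described as listed at 0 and not as absence.

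One osteosarcoma, Prx1Cre N42, is treated separately, although the rule for outlying values used below did not pick it out. On the transcripts that separated the types in the osteosarcoma direction, chosen without it, its mean level lay nearer to the clear cell sarcomas than to the other osteosarcomas (0.671 on a scale from 0 at the osteosarcoma mean to 1 at the clear cell sarcoma mean). Prx1Cre N38 was next (0.435), and the other 5 lay between -0.157 and 0.168. Results are given with all 7 osteosarcomas first and without Prx1Cre N42 where that changes them.

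Of 15230 transcripts tested, 4854 (31.9%) differed between the types at an adjusted p under 0.05 (limma on log2(RPKM + 1), Benjamini-Hochberg). Clear cell sarcoma was higher in 2759 (18.1%) and lower in 2095 (13.8%). The median difference was 1.29 on the log2 scale among the higher calls, -1.23 among the lower calls and 0.04 over all tested transcripts. At least 2-fold differences numbered 1842 higher (12.1%) and 1319 lower (8.66%), or 1708 and 1488 with median ratio scaling and 1644 and 1552 with quantile normalization. As deposited, at least 8-fold differences 289 higher and 152 lower, and at least 32-fold differences 52 higher and 21 lower. In bulk tumours a lower level in a type can come from fewer cells of a kind or from less RNA per cell, and these cannot be told apart here. In 325 transcripts (2.13%) no clear cell sarcoma overlapped any osteosarcoma. Of these 247 were higher (1.62%) and 78 lower (0.512%), and all 325 were among the 4854.

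**Figure D1:**
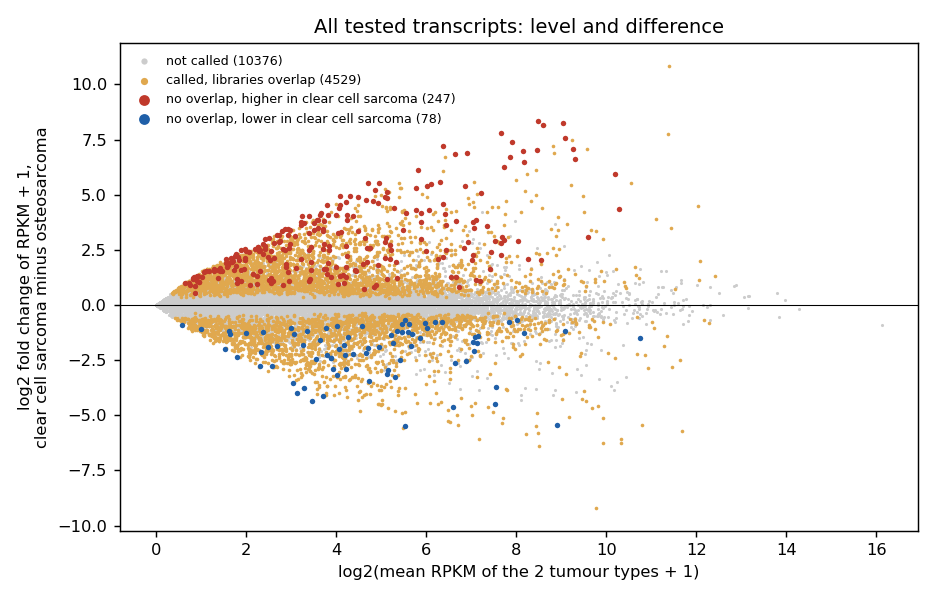
Each point is a tested transcript, with log2 of 1 plus the mean RPKM of the 2 tumour types on the x axis and the log2 fold change of RPKM + 1, clear cell sarcoma minus osteosarcoma, on the y axis. Red points (247) and blue points (78) are transcripts whose libraries do not overlap between the types, amber points (4529) other calls and grey points (10376) transcripts that did not pass the test, and the largest blue values fall short of the largest red ones.

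The balance of the directions moved with transcript length. Among the 1603 transcripts under 100 bases, 172 were higher and 256 lower in clear cell sarcoma, with a median difference of -0.26 (log2). From 100 to under 500 bases the counts were 459 higher and 555 lower, and from 500 to under 1500 bases 805 higher and 558 lower. At 3000 bases or more they were 499 higher and 270 lower, with a median difference of 0.15. The mean share of RPKM on transcripts under 100 bases was also larger in osteosarcoma (42.2% against 37.4%), without passing the adjusted test, and its part in the length pattern was not tested. The share of transcripts called was 17.8% where the mean level was under 1 RPKM and 29.5% to 35.3% in the classes above that. Balance also moved with the filter of at least 1 RPKM in at least 6 libraries and with scaling. Without the filter, 2742 of 19791 tested transcripts were higher and 2368 lower. With quantile normalization, 2519 transcripts were higher and 2640 lower, and with median ratio scaling 2618 and 2515, while no call of the 4854 reversed under either.

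Some transcripts were listed at 0 throughout one type. The counts of the 2 directions cannot be compared, since 7 zeros are needed in osteosarcoma and 13 in clear cell sarcoma, and the filter on low values is met more easily by transcripts high in 13 libraries. In 31 transcripts every osteosarcoma was listed at 0 and every clear cell sarcoma was above 0, and 1 of these was shorter than 100 bases. Their mean level in clear cell sarcoma had a median of 13.7 RPKM, and the highest of those with at least 100 bases was 67.8 RPKM. The reverse, every clear cell sarcoma at 0 and every osteosarcoma above 0, held in 3 transcripts with osteosarcoma means up to 20.1 RPKM. Without Prx1Cre N42 these 2 counts were 34 and 11. Among called transcripts, 320 of the 2759 higher ones were listed at 0 in all 7 osteosarcomas and 98 of the 2095 lower ones in all 13 clear cell sarcomas.

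The 15 leading higher transcripts were those with the largest differences among calls with a mean of at least 5 RPKM in the higher type, at least 100 bases and no overlap, and 195 transcripts met these conditions. Transcript uc007pav.2, with a recovered length of 134 bases, led the list. It had a lowest value of 84.2, a median of 750.1 and a highest of 2022 RPKM in the 13 clear cell sarcomas. In the osteosarcomas it was listed at 0 in Col1Cre N22, Col1Cre N26, Prx1Cre N28 and Prx1Cre N42, and had 0.696 RPKM in Prx1Cre N38, 1.47 in Col1Cre N31 and 5.83 in Col1Cre N27. The lowest clear cell sarcoma, TATCre N123-Rleg, thus lay far above the highest osteosarcoma. The difference was 8.15 on the log2 scale (SE 0.691, limma adjusted p = 3.03e-10). Rosa26CreER tumours averaged 1200 ± 673 RPKM (SD, n = 5) and Prx1CreERT2 tumours 120 ± 12.7 (SD, n = 2), while the synovial sarcomas, at 426 ± 129 RPKM (SD, n = 6), also carried it and the controls had 12.7 ± 13.5 (SD, n = 6).

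Transcript uc009czd.1, of 2073 bases, was second and was the steadiest of the 15 within clear cell sarcoma, where its highest library exceeded its lowest 4.56-fold. It had a lowest value of 140.0, a median of 443 and a highest of 638 RPKM in clear cell sarcoma. Among the osteosarcomas it was listed at 0 in Prx1Cre N38 and Prx1Cre N42, had 0.523 RPKM in Prx1Cre N28 and lay between 0.791 and 1.34 RPKM in the 4 Col1Cre tumours. No library of one type came near the other. The difference was 7.78 (log2; SE 0.28, limma adjusted p = 3.88e-19). Its level was highest in the TATCre tumours, with 592 ± 59.7 RPKM (SD, n = 4), against 325 ± 145 in Rosa26CreER (SD, n = 5), 386 ± 210 in Prx1CreERT2 (SD, n = 2) and 217 ± 46.7 in Bmi1IRESCreERT2 (SD, n = 2).

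**Figure D2:**
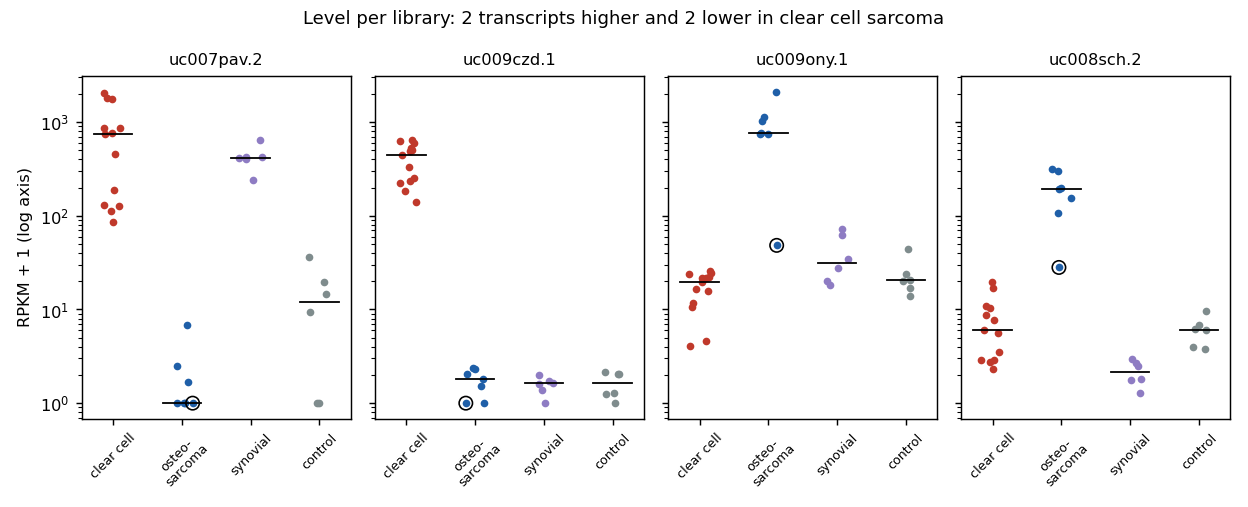
Each point is 1 library, with RPKM + 1 on a log y axis and the 4 tissue types side by side for each of the 4 transcripts. Horizontal lines are medians and circled points mark osteosarcoma Prx1Cre N42, which sits apart from the other 6 osteosarcomas in uc009ony.1 (47.4 RPKM) and uc008sch.2 (27.1 RPKM).

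The other 13 leading higher transcripts had log2 differences of 5.56 to 7.59 and recovered lengths of 241 to 5055 bases. Across all 15, mean levels were 110 to 2315 RPKM in clear cell sarcoma and 0.0169 to 32.6 RPKM in osteosarcoma. Within clear cell sarcoma these transcripts varied widely. The highest library exceeded the lowest by 4.56-fold to 206-fold, with a median of 19.7-fold. That no clear cell sarcoma fell to the highest osteosarcoma is fixed by the choice. At rank 12 the lowest clear cell sarcoma had 6.72 RPKM and the highest osteosarcoma 5.65 RPKM. The transcripts ranked 1, 6 and 9 lie within 5 lines of each other in the deposited table and all 3 were high in synovial sarcoma. If they overlap on the genome, which the table does not show, the counting could have shared their reads. The synovial sarcoma mean was nearer to clear cell sarcoma in 4 of the 15 and the control mean in none. Osteosarcoma Col1Cre N22 had 104.5 RPKM of the transcript ranked 5, against 0.0603 to 10.3 RPKM in the other 6 osteosarcomas and 199 RPKM in the lowest clear cell sarcoma.

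On the osteosarcoma side the same conditions left 61 transcripts. Transcript uc009ony.1, of 471 bases, had the largest difference. It had a lowest value of 3.09, a median of 18.8 and a highest of 24.6 RPKM in clear cell sarcoma. The osteosarcomas had 738 (Col1Cre N27), 753 (Col1Cre N22), 758 (Prx1Cre N28), 1039 (Prx1Cre N38), 1130 (Col1Cre N26) and 2121 RPKM (Col1Cre N31), and Prx1Cre N42 had 47.4. The groups did not overlap, but Prx1Cre N42 lay much nearer to the highest clear cell sarcoma than to the next osteosarcoma. The difference was -5.45 (log2; SE 0.488, limma adjusted p = 9.24e-10) with all libraries and -6.07 (SE 0.37, limma adjusted p = 2.63e-13) without Prx1Cre N42. Synovial sarcomas had 38.1 ± 22.5 RPKM (SD, n = 6) and controls 22.2 ± 10.6 (SD, n = 6).

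Transcript uc008sch.2, of 2503 bases, also had its lowest osteosarcoma value in Prx1Cre N42 and its highest in Col1Cre N31. Its lowest value, median and highest value in clear cell sarcoma were 1.33, 5.07 and 18.5 RPKM. The osteosarcomas had 107 (Col1Cre N26), 155 (Prx1Cre N38), 191 (Prx1Cre N28), 200 (Col1Cre N27), 301 (Col1Cre N22) and 316 RPKM (Col1Cre N31), with 27.1 RPKM in Prx1Cre N42. The value of Prx1Cre N42 was above every clear cell sarcoma, and the groups did not overlap. The difference was -4.62 (log2; SE 0.422, limma adjusted p = 1.26e-09) with all libraries and -5.03 (SE 0.384, limma adjusted p = 4.04e-11) without Prx1Cre N42. Synovial sarcomas had 1.16 ± 0.641 RPKM (SD, n = 6) and controls 5.06 ± 2.15 (SD, n = 6).

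The other 13 leading lower transcripts were mostly short and of low level. Across all 15 the log2 differences ran from -5.45 to -2.76, the recovered lengths from 114 to 3157 bases with 10 under 500, and the osteosarcoma means from 7.67 to 941 RPKM. All 13 clear cell sarcomas were listed at 0 in 2 of the 15. Prx1Cre N42 was the lowest osteosarcoma in 7 of the 15. Over the 7 osteosarcomas the highest library was 2.49-fold to 44.8-fold above the lowest, with a median of 3.87-fold. The synovial sarcoma mean was nearer to clear cell sarcoma in 13 of the 15 and the control mean in 11. The transcripts ranked 1 and 11 stand 2 lines apart in the table.

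**Figure D3:**
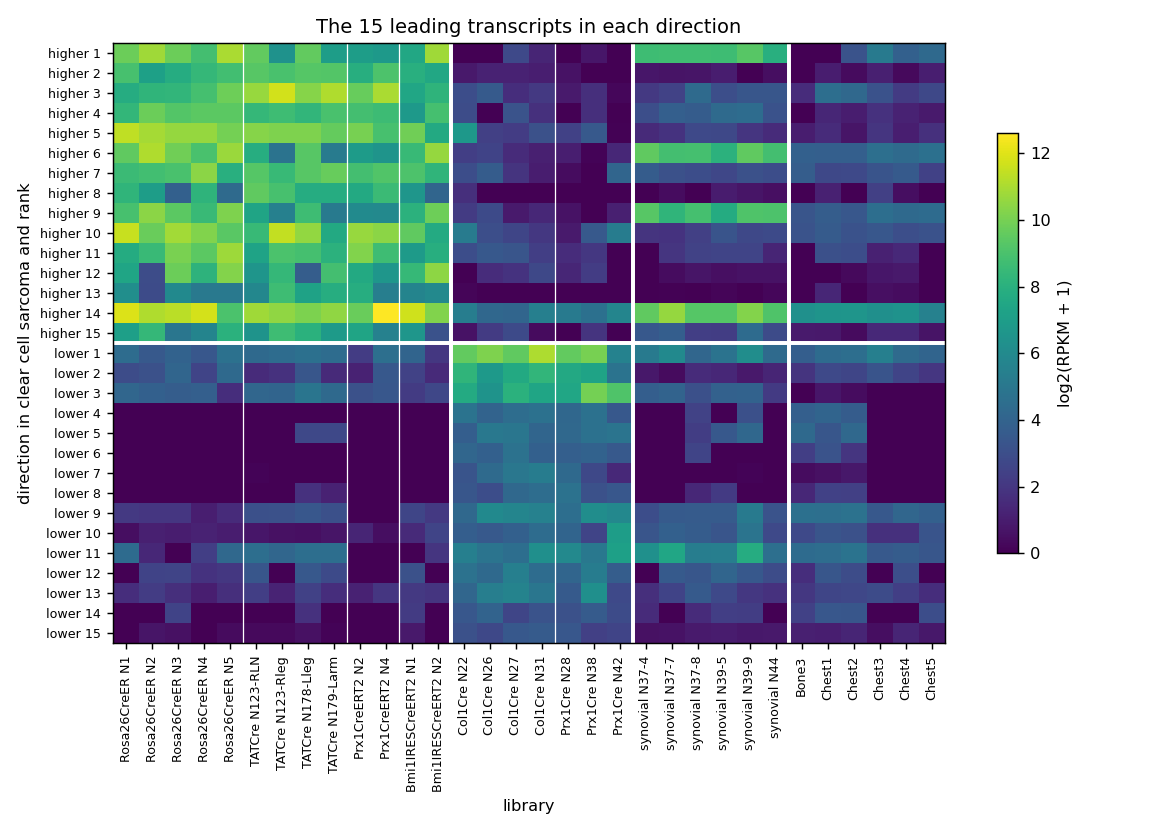
Rows are the 15 leading transcripts in each direction by rank and columns are the 32 libraries in their groups, with colour giving log2(RPKM + 1) from 0 to above 12. Within each upper row the 13 clear cell sarcomas are brighter than the 7 osteosarcomas, which the choice fixes. Some clear cell sarcomas are dark, down to 6.29 RPKM at rank 13, and an osteosarcoma reaches 104.5 RPKM at rank 5. Of the upper rows 4 are also bright in synovial sarcoma, and in the lower rows Prx1Cre N42 is the lowest osteosarcoma in 7 of 15.

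Leaving out Prx1Cre N42 hardly moved the number of calls and changed which osteosarcoma transcripts led. Without it, 4887 transcripts (32.1%) passed the test, 2624 higher and 2263 lower in clear cell sarcoma. Of the 4854 calls, 4228 were kept, 2392 higher and 1836 lower, and 232 higher and 427 lower calls were gained. At least 2-fold differences numbered 1752 higher and 1488 lower, and at least 8-fold differences 271 higher and 201 lower. Of the 15230 tested, transcripts without overlap rose from 247 to 294 on the clear cell sarcoma side and from 78 to 202 on the osteosarcoma side. Leaving out any library can only keep or raise these counts. The conditions for leading transcripts then left 231 higher and 166 lower candidates. Of the 15 leading higher transcripts, 14 were the same as with all libraries, and of the 15 leading lower transcripts 4 were the same.

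The 11 lower transcripts that entered had been kept out because Prx1Cre N42 overlapped the clear cell sarcomas. That it was at or under the highest clear cell sarcoma in all 11 is therefore fixed by the choice. Its values in them describe that library and test nothing. Over the 15 Prx1Cre N42 was listed at 0 in 8. The first of the 15, of 3139 bases, had a lowest value of 1868, a median of 3030 and a highest of 4144 RPKM in the 6 other osteosarcomas. Prx1Cre N42 had 4.32 RPKM, the clear cell sarcomas ran from 0.609 over a median of 15.7 to 66.01 RPKM, and the controls from 23.9 to 58.1. Its level in Prx1Cre N42 was thus under that of every control. The difference was -7.57 (log2; SE 0.598, limma adjusted p = 7.45e-11) without Prx1Cre N42 and -6.27 (SE 0.903, limma adjusted p = 4.91e-06) with it. The fifth, of 2675 bases, had 1045 to 2768 RPKM in the 6 osteosarcomas, 4.52 in Prx1Cre N42 and 1.10 to 264 RPKM in clear cell sarcoma. For it the difference was -5.53 (limma adjusted p = 1.05e-05) against -4.37 (limma adjusted p = 0.0014) with all libraries. The tenth had 23.5 to 200.4 RPKM in the 6 osteosarcomas and was listed at 0 in Prx1Cre N42.

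In 124 transcripts the 6 other osteosarcomas lay above every clear cell sarcoma and Prx1Cre N42 did not. Over these the median level was 36.4 RPKM in the 6 osteosarcomas, 4.66 in Prx1Cre N42, 7.79 in clear cell sarcoma and 5.01 in control tissue. Prx1Cre N42 was listed at 0 in 41 of them, lay under every clear cell sarcoma in 19, at or under the clear cell sarcoma median in 90 and at or under the highest control in 99. Their median length was 1178 bases and 10 were under 100 bases. Over all transcripts with a recovered length the median was 1206 bases, and 1603 of the 15230 tested were under 100 bases. With all 7 osteosarcomas 122 of the 124 still passed the test, 101 of them at 2-fold or more. These transcripts were chosen by the level in Prx1Cre N42, so their values describe that library and test nothing. Whether normal tissue in that tumour played a part was not tested, and marker genes were not used here.

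On the lower side no other library moved the count without overlap as much. Leaving out Prx1Cre N38 gave 128 lower transcripts without overlap, Prx1Cre N28 gave 104 and Col1Cre N26 gave 102, and each of the other 16 libraries gave 78 to 98. On the higher side 3 libraries moved it more than Prx1Cre N42 (294). There the count was 346 without the clear cell sarcoma TATCre N123-Rleg, 309 without Col1Cre N22 and 303 without Col1Cre N27, against 247 with all.

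**Figure D4:**
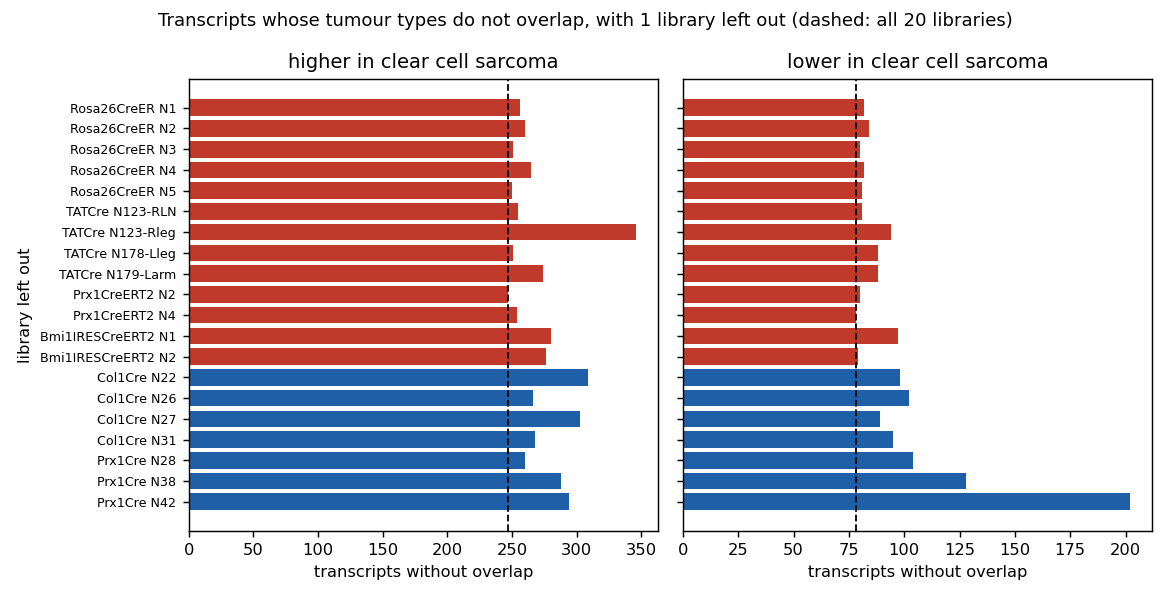
Bars give the number of tested transcripts whose clear cell sarcoma and osteosarcoma libraries do not overlap after 1 library, named on the y axis, is left out, and dashed lines the number with all 20 libraries. The bar of Prx1Cre N42 reaches 202 on the lower side against 78 with all libraries, and that of TATCre N123-Rleg reaches 346 on the higher side against 247.

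Each library was then placed on sets chosen without it. The sets were the transcripts called at 2-fold or more in a fit that left the library out, and its mean log2(RPKM + 1) was scaled so that 0 is the mean of the other osteosarcomas and 1 that of the other clear cell sarcomas. On the set higher in clear cell sarcoma, the 7 osteosarcomas lay between -0.0157 and 0.199 (median 0.069) and the 13 clear cell sarcomas between 0.547 and 1.13 (median 0.997). The types were wide apart there, and the lowest clear cell sarcomas were TATCre N123-Rleg (0.547) and TATCre N179-Larm (0.664). On the set lower in clear cell sarcoma, the osteosarcomas lay between -0.157 and 0.671 (median 0.154) and the clear cell sarcomas between 0.535 and 1.23 (median 0.944). Here the ranges overlapped. Prx1Cre N42 was at 0.671 and Prx1Cre N38 at 0.435, whereas Bmi1IRESCreERT2 N1 was at 0.535 and TATCre N178-Lleg at 0.683. On the higher set Prx1Cre N42 lay with the other osteosarcomas (-0.0157), but the controls lay there too (-0.0441 to 0.214). On the lower set it lay nearer to clear cell sarcoma than any other osteosarcoma (0.671).

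**Figure D5:**
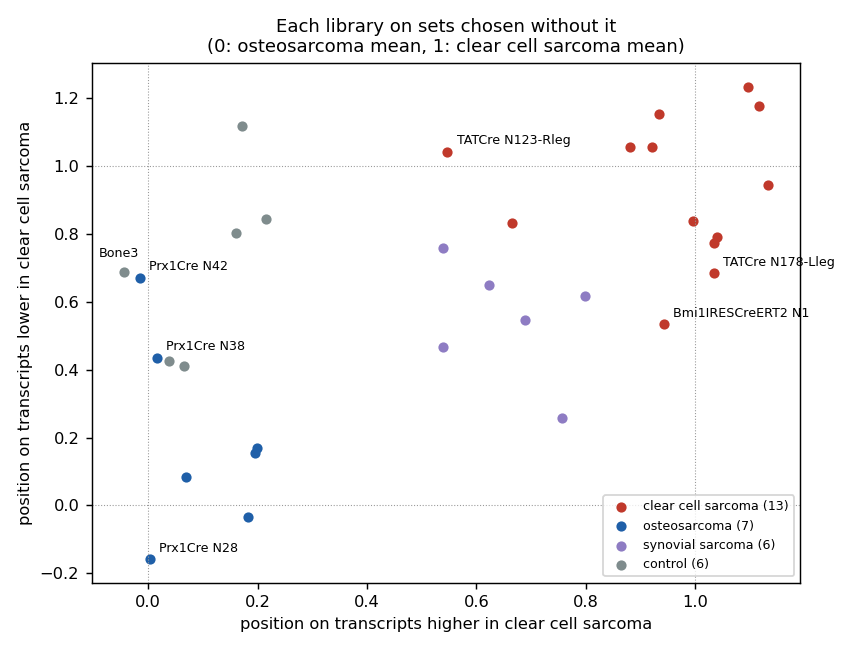
Each point is 1 of the 32 libraries, placed by its mean level on the transcripts higher (x axis) and lower (y axis) in clear cell sarcoma, where 0 is the osteosarcoma mean, 1 the clear cell sarcoma mean, and the sets were chosen without that library. Osteosarcomas form a column at the left from -0.157 to 0.671 on the y axis, topped by Prx1Cre N42, which lies beside the control Bone3.

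The same scale shows where the other tissues lay. Controls were at -0.0441 to 0.214 on the higher set, within or just outside the osteosarcoma range, and at 0.410 to 1.12 on the lower set. Synovial sarcomas were between the types on both sets, at 0.538 to 0.799 and at 0.258 to 0.758. Counted per transcript, the synovial sarcoma mean was nearer to clear cell sarcoma in 1163 of the 1842 higher transcripts (63.1%) and the control mean in 384 (20.8%). The median level of these 1842 was 3.48 in clear cell sarcoma, 3.08 in synovial sarcoma, 1.53 in the controls and 1.29 in osteosarcoma (log2(RPKM + 1)). Of the 1319 lower transcripts, the synovial sarcoma mean was nearer to clear cell sarcoma in 734 (55.6%) and the control mean in 879 (66.6%). Their median levels were 1.75 in clear cell sarcoma, 2.45 in the controls, 2.91 in synovial sarcoma and 3.89 in osteosarcoma.

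Single libraries set the edge of a type unevenly. Prx1Cre N42 was the lowest osteosarcoma in 27.4% of the 1319 lower transcripts, against 20.6% of all tested, and Prx1Cre N38 in 20.6% against 23.4%. TATCre N123-Rleg was the lowest clear cell sarcoma in 25.4% of the 1842 higher transcripts, against 21.3% of all tested. Bmi1IRESCreERT2 N1 was the highest clear cell sarcoma in 27.3% of the 1319, against 16.03%. Spread differed in the same way. The median SD of a transcript on the log2 scale was 0.899 over the 3 Prx1Cre and 0.476 over the 4 Col1Cre osteosarcomas, and 0.437 over the 5 Rosa26CreER and 0.497 over the 4 TATCre clear cell sarcomas.

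The contrast was next taken for each way of starting the tumours, in a model of 8 groups. These contrasts share libraries and are given side by side. Against the Col1Cre osteosarcomas 3627 transcripts (23.8%) differed, with clear cell sarcoma higher in 1854 and lower in 1773. Against the Prx1Cre osteosarcomas 4242 (27.9%) differed, 2847 higher and 1395 lower. The split in the second contrast moved to 2402 higher and 2133 lower with median ratio scaling and to 2164 and 2261 with quantile normalization. Between Prx1CreERT2 clear cell sarcomas and Prx1Cre osteosarcomas 2874 (18.9%) differed, 1937 higher and 937 lower. The split was 1652 and 1449 with median ratio scaling and 1664 and 1328 with quantile normalization. Both Cre names carry Prx1, but CreERT2 acts only after tamoxifen. The contrast is therefore not taken as matched for the cells or the time in which the tumours started. That contrast rests on 2 against 3 libraries, and without Prx1CreERT2 N2 or N4 it held 1292 or 1039 calls. Without Prx1Cre N42 the 3 contrasts held 4067, 4001 and 3251 calls.

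Against the mean of both osteosarcoma groups, 4433 transcripts (29.1%) differed in Rosa26CreER, 3460 (22.7%) in TATCre, 3129 (20.5%) in Prx1CreERT2 and 2325 (15.3%) in Bmi1IRESCreERT2 tumours. Without Prx1Cre N42 the counts were 4744 in Rosa26CreER, 3511 in TATCre, 3711 in Prx1CreERT2 and 3179 in Bmi1IRESCreERT2 tumours. The last 2 groups hold 2 libraries each, and the size of a group bears on its count. Without N2 or N4 the Prx1CreERT2 count was 1238 or 881, without N1 or N2 the Bmi1IRESCreERT2 count was 750 or 564, and without N123-RLN the TATCre count was 2306. Rosa26CreER calls were 3008 higher and 1425 lower, or 2469 and 1960 with median ratio scaling and 2230 and 2181 with quantile normalization. TATCre calls were 1808 higher and 1652 lower, which turned to 1776 and 1892 with median ratio scaling, Prx1CreERT2 calls 1889 and 1240, and Bmi1IRESCreERT2 calls 1512 and 813, the last turning to 1160 and 1332 with quantile normalization. The leading transcripts were chosen on these same libraries, so their counts here are descriptions. All 15 leading higher transcripts passed in each of these 4 contrasts. Of the 15 lower ones, 15 passed in Rosa26CreER and Prx1CreERT2 tumours, 13 in TATCre tumours and 14 in Bmi1IRESCreERT2 tumours. The leading lower transcripts that did not pass had log2 differences of -1.20 (limma adjusted p = 0.207) and -2.14 (limma adjusted p = 0.0547) in TATCre and -2.18 (limma adjusted p = 0.0853) in Bmi1IRESCreERT2 tumours.

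The 4 transcripts named above were chosen for having no overlap between the same libraries, which fixes their direction with every Cre, so only their sizes are described here. For uc007pav.2 the difference from osteosarcoma was 9.39 (log2; SE 0.797) in Rosa26CreER and 6.28 (SE 1.09) in Prx1CreERT2 tumours. That of uc009czd.1 ran from 7.11 (SE 0.379) in Bmi1IRESCreERT2 to 8.56 (SE 0.297) in TATCre tumours. That of uc009ony.1 ran from -6.19 (SE 0.779) in Bmi1IRESCreERT2 to -4.78 (SE 0.61) in TATCre tumours, and that of uc008sch.2 from -5.16 (SE 0.642) in Bmi1IRESCreERT2 to -3.74 (SE 0.47) in Rosa26CreER tumours.

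Whether the 4 clear cell sarcoma groups differed among themselves was tested with limma's F test over the groups. It called 1706 of all 15230 transcripts (11.2%), 462 of the 1842 that were at least 2-fold higher in clear cell sarcoma (25.1%) and 122 of the 1319 that were at least 2-fold lower (9.25%). The transcripts were chosen on the same clear cell sarcoma libraries, so the shares are descriptions. Of the leading transcripts, 6 of the 15 higher and 2 of the 15 lower were called. Among the named ones, uc009czd.1 passed (limma adjusted p = 0.0493), and uc007pav.2 (limma adjusted p = 0.166), uc009ony.1 (limma adjusted p = 0.546) and uc008sch.2 (limma adjusted p = 0.194) did not.

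Col1Cre and Prx1Cre osteosarcomas differed in 58 of 15230 transcripts (0.381%; limma, adjusted p under 0.05), 56 higher and 2 lower in Col1Cre, and 2097 had an unadjusted p under 0.05. Of the 1842 transcripts higher in clear cell sarcoma, 11 were higher and 1 lower in Col1Cre, and of the 1319 lower ones 8 were higher in Col1Cre. None of the 30 leading transcripts was called. This count depended on single libraries. It was 1448 without Prx1Cre N28, which leaves the pair Prx1Cre N38 and N42, 245 without Prx1Cre N38, 39 without Prx1Cre N42, and 137, 134, 12 and 32 without Col1Cre N22, N26, N27 and N31. With median ratio scaling it was 10 (8 higher and 2 lower) and with quantile normalization 3. A count this low with groups of 4 and 3 does not show that the osteosarcomas of the 2 Cre lines were alike.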

How the data were processed

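RNA was extracted with a Qiagen kit with DNase and made into Illumina TruSeq libraries, per the labels' protocols. The submitters' processing notes name CASAVA 1.8.2, Novoalign 2.07.03 and the mouse build mm9. What counted the reads was not given in the sources used here, and from those counts the authors deposited RPKM values for 55419 transcripts in 32 mouse libraries, matched to samples by title. A table of human tumours, with 29 columns, was not used.

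RPKM are not counts, so tests ran on log2(RPKM + 1), which understates changes of low transcripts. limma 3.58.1 (R 4.3.3, intensity trend, two-sided, Benjamini-Hochberg, adjusted p under 0.05) was fitted to all 32 libraries in 4 types, over 15230 transcripts with at least 1 RPKM in at least 6 libraries, and again in 8 groups by Cre. No covariate was given. Library measures were tested by exact permutation (77520 regroupings). Depth (8.11 to 13.1 M reads) and lengths (16388 of 16398 transcripts above 0 in at least 6 libraries) were recovered from the steps of the RPKM values, with lengths whole within 0.02. The fits were tried on simulated data with independent, normal values and, for each transcript, the same spread in every library. The real libraries differ from that setting in spread and in values listed at 0, so the simulation does not test the calls made here.

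Leading transcripts were, in each direction, the 15 largest differences among calls with at least 5 RPKM in the higher type, no overlap and at least 100 bases, and the first 2 are named. The listed marker genes and gene lists were not used, since identifiers have no gene names here. The groups compared, the rule and the lists were chosen with earlier results of these data known. Alternatives were pseudocounts, filters, scaling, weights, libraries left out and libraries averaged. The controls Chest1 and Chest2 agreed nearly within sampling noise (variance ratio 1.33, against 14.9 for the closest compared pair), and averaging them was added after seeing the data.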

Additional observations from a re-analysis of the deposited data

Results flagged for a closer look

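Of 40 groups of values checked for a library far from the rest, 3 were picked out. Prx1Cre N42 was not the library in any of them, although its position on the lower set was among the values checked. The rule picks about 1 in 20 groups of independent, normally spread values. The groups here overlap and some of their values are skewed or tied at 0, so that rate need not hold. Osteosarcoma Col1Cre N26 was at 0.069 on the scale of transcripts higher in clear cell sarcoma (0 the osteosarcoma mean, 1 the clear cell sarcoma mean), below the other 3 Col1Cre libraries at 0.183 to 0.199. Col1Cre N27 had 5.83 RPKM of uc007pav.2, the highest osteosarcoma, with 1.47 RPKM in the next. TATCre N178-Lleg had 9.36 RPKM of uc008sch.2, with 2.53 RPKM in the next of the 4 TATCre tumours.

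Differences between groups under the same contrast were tested in the model of 8 groups with limma. The difference from clear cell sarcoma was not the same for Col1Cre and Prx1Cre osteosarcoma in 58 transcripts. The difference from osteosarcoma was not the same for the 4 initiating Cre groups of clear cell sarcoma in 1706 transcripts.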

How the results depend on the processing

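All 959 values that the 32 alternatives gave for the 30 leading transcripts (the lower transcript ranked 15 was left out by the 5 RPKM filter) kept their direction and passed the test, a direction that the choice of transcripts without overlap fixes when libraries are left out, and no call of the 4854 reversed in any of the 32. The 32 alternatives gave 3849 to 5202 calls, of which 48.8% (quantile normalization) to 60.4% (without Col1Cre N27) were higher, and kept at least 78.6% of the 4854 calls (the lowest with the 5 RPKM filter, which tests fewer transcripts). The scaling alternatives moved the median of all transcripts by at most 0.0668 (log2). With only the 20 compared libraries there were 3918 calls, and with Chest1 and Chest2 averaged, added after seeing the data, 4768. With a pseudocount of 5 the calls of at least 2-fold numbered 1765 (972 higher, 793 lower).

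Leaving out 1 library in turn gave 4381 to 5202 calls, and 2888 to 3334 of at least 2-fold. In the model of 8 groups, leaving out libraries of the groups compared and, for Col1Cre, also Prx1Cre N42, gave 2693 to 4067 calls against Col1Cre osteosarcoma, 3768 to 4465 against Prx1Cre osteosarcoma, 1039 to 3440 for Prx1CreERT2 against Prx1Cre, and against both osteosarcoma groups 3549 to 4744 for Rosa26CreER, 2306 (without N123-RLN) to 4559 for TATCre, 881 to 3711 for Prx1CreERT2 and 564 to 3179 for Bmi1IRESCreERT2. The lowest counts of the last 2 groups leave 1 library, assumed to vary like the others. The 58 calls of Col1Cre against Prx1Cre became 12 to 1448, 101 with a pseudocount of 0.1, 10 with median ratio scaling and 3 with quantile normalization. The cause was not tested. No paired analysis was possible because clear cell sarcoma and osteosarcoma titles share no replicate number. Depth was 8.11 to 13.1 M reads, so transcripts listed at 0 may be below detection.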
